A study of Homo sapiens with 9 samples.

Results

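*FZD6* encodes a Frizzled receptor, and its RefSeq transcripts were followed in RNA-seq libraries of DU145 cells, an established human prostate cancer cell line. All 5 table entries whose RefSeq accession belongs to *FZD6* were taken, of 83497 entries in each table. Every library came from DU145 cells with the genotype label WT. The 3 control libraries (DU145 scramble) expressed a scrambled shRNA, 3 libraries expressed *FZD6* shRNA1 (labelled shRNA FZD6 #1) and 3 expressed *FZD6* shRNA2 (#2). The methods describe pLKO.1, a lentiviral vector, for constitutive expression of the scrambled and *FZD6* hairpins. Neither the labels nor the methods say whether the triplicates were separate cultures or separate infections, so the p-values measure the spread between these libraries, which may be technical. All groups share one cell line, and each *FZD6* group rests on 1 hairpin.

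Frizzled proteins are membrane receptors of Wnt ligands. FZD6 is best known for signaling that does not run through β-catenin and for planar cell polarity, the alignment of cells within a sheet, where it acts beside the CELSR cadherins, VANGL, PRICKLE and Dishevelled proteins. A short hairpin RNA is processed into a small RNA that guides cleavage of mRNAs holding its target, so a transcript that lacks the target is not cut directly. A transcript whose reading frame ends well before its last exon junction is a usual substrate of nonsense-mediated decay. Cufflinks divides the fragments of a gene among its annotated transcripts by likelihood, and fragments from exons that the transcripts share carry little information on that division. Values are in FPKM (fragments normalized to transcript length in kilobases and to library size), a scale already divided by transcript length, and Cufflinks gives a lower and an upper bound of confidence beside each, for that library alone.

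*FZD6* lies on chromosome 8 from 103298494 to 103332866 in the human build GRCh38. Of its 5 entries, NM_003506, NM_001164615, NM_001164616 and NM_001317796 are protein-coding accessions and NR_133921 is a noncoding accession. NM_003506 is paired in GENCODE v29 with ENST00000358755.4, which has 7 exons, 3788 bases and a coding sequence of 706 codons. NR_133921 is paired with ENST00000522484.5, a transcript of 6 exons and 3646 bases annotated as subject to nonsense-mediated decay. It lacks an exon of 149 bases (103328268 to 103328416), a length that leaves the reading frame shifted, and its annotated frame stops after 467 codons. NM_001164615 is paired with ENST00000522566.5, which begins at another first exon further upstream and keeps the same 706 codons. NM_001317796 and NM_001164616 are both paired with ENST00000523739.5, in which 115 bases of the second exon (103300085 to 103300199), the usual start codon among them, are removed and the frame has 674 codons.

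The targeting sequences of the hairpins, each 21 bases long, were searched in all GENCODE v29 transcripts, and their numbers in the study's cloning table were taken as shRNA1 and shRNA2. The shRNA1 target lies at 103332352 to 103332372 in the last exon, in the 3′ untranslated region. Of the 7 annotated *FZD6* transcripts, 3 hold it: those paired with NM_003506, NR_133921 and NM_001164615. The shRNA2 target lies at 103324792 to 103324812 in the coding sequence, in exon 4 of ENST00000358755.4. It is held by 5 of the 7 transcripts, among them those of all 5 RefSeq entries. The transcript paired with NM_001317796 and NM_001164616 ends 358 bases before the shRNA1 target in GENCODE, whereas the loci of both entries in the tables run 514 bases past the first base of that target. The 2 annotations therefore disagree on whether these entries carry the shRNA1 target, and the exons behind the table entries were not analysed here. Neither target occurs in a GENCODE transcript of another gene. A qPCR amplicon described for *FZD6* by the study spans the junction between exons 2 and 3 of ENST00000358755.4, and the primers match 6 of the 7 transcripts, so it does not tell the RefSeq entries apart.

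**Figure D1:**
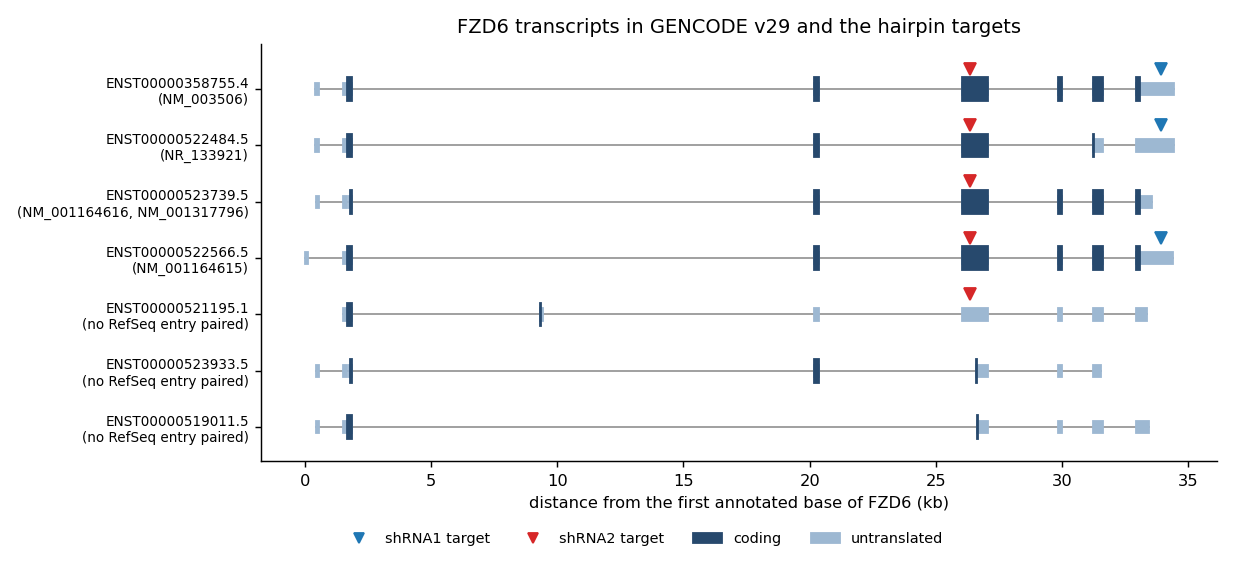
Exons of the 7 *FZD6* transcripts of GENCODE v29 against distance in kb from the first annotated base, with dark boxes for coding sequence, light boxes for untranslated sequence and triangles for the hairpin targets. The shRNA2 target (red) is present in 5 transcripts and the shRNA1 target (blue) in 3. The GENCODE transcript paired with NM_001317796 and NM_001164616 ends before the shRNA1 target. The loci of both entries themselves run 514 bases past the first base of that target.

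The libraries carried the epithelial keratins of this line, with *KRT8* at 202 to 238 FPKM and *KRT18* at 260 to 296 FPKM, while the basal keratin gene *KRT5* did not exceed 0.0447 FPKM. Of the fibroblast genes, *COL1A1* was at 0.294 to 0.455 FPKM, and *COL1A2* and *DCN* did not exceed 0.00533 and 0.00384 FPKM. The leukocyte genes *PTPRC* and *CD3E* were at 0. Depth, estimated from the width of the bounds of single-transcript genes, was 32.1 to 40.2 M fragments per library. The total of the *FZD6* entries was 20.9, 20.5 and 20.04 FPKM in control replicates 1 to 3, 9.47, 10.2 and 9.80 FPKM with shRNA1, and 7.84, 8.79 and 7.69 FPKM with shRNA2. All knockdown libraries lay below all control libraries, and all shRNA2 libraries lay below all shRNA1 libraries. How many gene totals separate in this way was not counted. Summed over the 4 protein-coding entries alone, the hairpin groups overlapped, at 6.50 to 8.38 FPKM with shRNA1 and 6.18 to 6.87 FPKM with shRNA2. In RNA of whole cultures, a smaller number of cells with the transcript and less of it in each cell cannot be told apart.

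NM_003506, the 706-codon coding transcript, was the highest *FZD6* entry in 9 of 9 libraries. In control cells its level was 9.68 FPKM (bounds 8.87 to 10.5) in replicate 1, 15.1 FPKM (14.2 to 16.1) in replicate 2 and 15.0 FPKM (14.1 to 15.96) in replicate 3. With shRNA1 it was 6.49 FPKM (5.91 to 7.08), 6.28 FPKM (5.73 to 6.83) and 8.24 FPKM (7.60 to 8.88). With shRNA2 it was 5.05 FPKM (4.52 to 5.57), 5.27 FPKM (4.73 to 5.81) and 4.52 FPKM (4.06 to 4.98). The 3 groups did not overlap, although control replicate 1 was far below the other control libraries, and its lower bound did not clear the upper bound of shRNA1 replicate 3. The control mean of 13.3 ± 3.11 FPKM (SD, n = 3) compares with 7.00 ± 1.07 FPKM for shRNA1 and 4.94 ± 0.384 FPKM for shRNA2 (n = 3 each), reductions of 47.2% and 62.7%.

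NR_133921, the transcript without the 149-base exon, was the second highest entry in 7 of 9 libraries. Its level in control replicates 1 to 3 was 5.45 FPKM (4.83 to 6.07), 5.33 FPKM (4.75 to 5.91) and 4.60 FPKM (4.06 to 5.13). With shRNA1 it was 2.97 FPKM (2.54 to 3.40), 2.32 FPKM (1.96 to 2.68) and 1.41 FPKM (1.11 to 1.72). With shRNA2 it was 0.973 FPKM (0.708 to 1.24), 2.04 FPKM (1.67 to 2.40) and 1.51 FPKM (1.21 to 1.81). Every knockdown library lay below every control library with bounds that did not meet, whereas the libraries of the 2 hairpins overlapped. The control mean of 5.13 ± 0.461 FPKM (SD, n = 3) compares with 2.23 ± 0.782 FPKM for shRNA1 and 1.51 ± 0.532 FPKM for shRNA2 (n = 3 each), reductions of 56.4% and 70.6%.

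NM_001317796 and NM_001164616, whose GENCODE partner lacks the usual start codon, varied widely from library to library within each group. NM_001317796 was at 3.25 FPKM (2.78 to 3.72) in control replicate 1, 5.84e-19 FPKM in replicate 2 and 0.408 FPKM (0.253 to 0.563) in replicate 3. It was at 2.29e-07, 1.21e-06 and 0.140 FPKM with shRNA1, and at 0.00135, 0.948 and 1.57 FPKM with shRNA2. NM_001164616 was at 2.37 FPKM (1.97 to 2.77), 0.0755 and 1.41e-05 FPKM in control cells, at 0.00614, 1.62 and 2.42e-05 FPKM with shRNA1, and at 1.82, 0.00103 and 0.0872 FPKM with shRNA2. Their groups overlapped in every comparison, and high and near-zero values occurred in the control group and in the shRNA2 group for both entries. NM_001164615, with the upstream first exon, was at 0.170, 0.00651 and 0.0320 FPKM in control cells. It did not exceed 0.00431 FPKM with shRNA1, and it reached 0.538 FPKM (0.364 to 0.713) in shRNA2 replicate 2, with both other shRNA2 libraries below 0.01 FPKM.

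**Figure D2:**
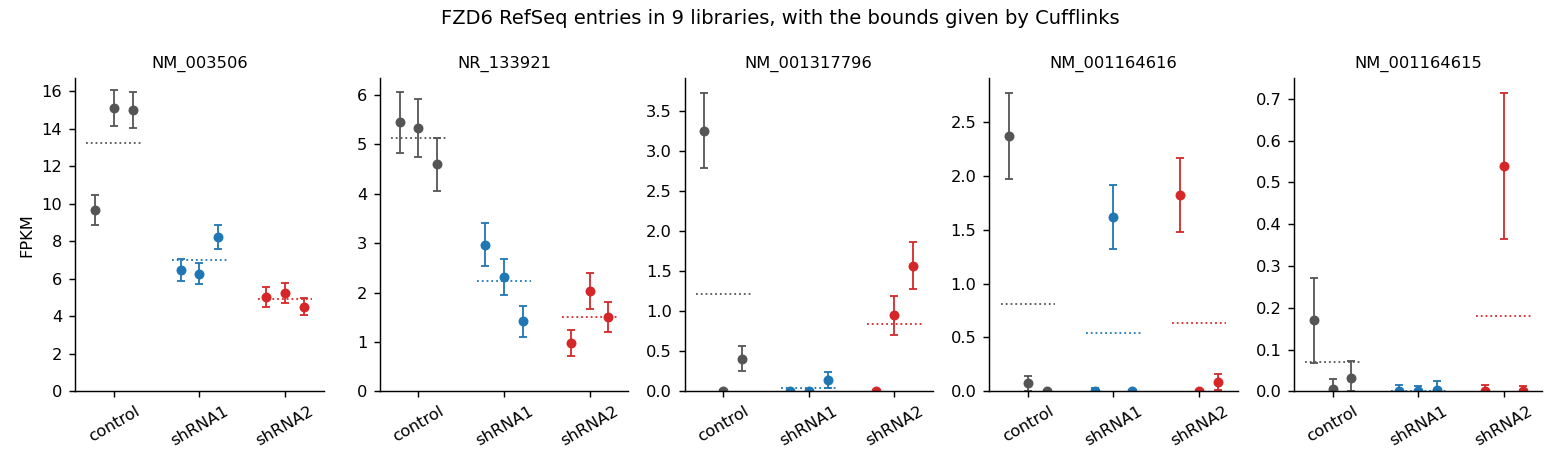
FPKM of the 5 *FZD6* entries in 9 libraries (points, replicates 1 to 3 from left to right in each group) with the Cufflinks bounds as bars and group means as dotted lines, each panel on its own scale. NM_003506 and NR_133921 are lower with both hairpins, while the other 3 entries move between near 0 and up to 3.25 FPKM inside a group.

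The entries were tested by limma on log2(FPKM + 1) among the 20729 entries that averaged 1 FPKM or more, a filter that 2 of the 5 *FZD6* entries passed. NM_003506 (mean 8.41 FPKM) and NR_133921 (2.96 FPKM) passed. NM_001317796 (0.702 FPKM), NM_001164616 (0.665 FPKM) and NM_001164615 (0.0834 FPKM) did not. A fold change on this scale understates the change of low entries. With shRNA2, NM_003506 fell by 1.24 on the log2 scale (95% interval −1.65 to −0.83, adjusted p = 0.0204 by limma). NR_133921 fell by 1.31 (−1.81 to −0.80, adjusted p = 0.0305 by limma). Among all tested entries 3.3% were called with shRNA2. With shRNA1 the values were −0.82 for NM_003506 (−1.23 to −0.40, adjusted p = 0.0832 by limma) and −0.95 for NR_133921 (−1.45 to −0.44, adjusted p = 0.0908 by limma), and neither entry passed the threshold of 0.05 that 0.497% of entries passed.

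Over both hairpins, 6 libraries against 3, the log2 fold change was −1.03 for NM_003506 and −1.13 for NR_133921 (adjusted p = 0.0427 for each by limma), where 2.01% of entries were called. These calls at the level of single entries were narrow. Leaving out any 1 of the 9 libraries ended the call of NM_003506 over both hairpins (adjusted p = 0.052 to 0.168 by limma), and that of NR_133921 was kept in 1 of the 9 fits, without shRNA2 replicate 2. For shRNA2 alone, both calls were lost without control replicate 2 or 3, shRNA1 replicate 2, or shRNA2 replicate 1 or 3, and that of NR_133921 also without control replicate 1 (adjusted p up to 0.0862 for NM_003506 and 0.111 for NR_133921). The fold changes of both entries against control were negative in each of these fits. Without control replicate 1, the library that stands apart for NM_003506, that entry gave −1.01 with shRNA1 (adjusted p = 0.0940 by limma) and −1.44 with shRNA2 (adjusted p = 0.0206).

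For each entry an exact permutation test over libraries was also run on log2(FPKM + 1), two-sided, in a family of 20 tests. NM_003506 and NR_133921 each gave p = 0.0119 by the exact test over both hairpins, the smallest that 6 libraries against 3 allow (0.119 after Benjamini-Hochberg adjustment). With 3 libraries against 3 the exact test cannot go below 0.1. That value was reached for NM_003506 and NR_133921 with either hairpin, and for NM_001164615 with shRNA1, where all levels were below 0.2 FPKM. The other comparisons of the 3 low entries with control gave an exact p between 0.4 and 1. The *FZD6* total, outside that family, gave an exact p of 0.1 with either hairpin and 0.0119 over both, as NM_003506 and NR_133921 did. By limma its log2 fold change was −0.99 with shRNA1 (adjusted p = 0.000329) and −1.24 with shRNA2 (adjusted p = 4.51e-05). Among all 12507 tested genes, 11.6% were called higher and 7.19% lower with shRNA1, and 15.3% higher and 11.4% lower with shRNA2. Once a trend with transcript length was removed, 765 genes were called higher and 712 lower with shRNA1, and 1377 higher and 1488 lower with shRNA2. The calls of the total held in all 9 fits that leave out 1 library.

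**Figure D3:**
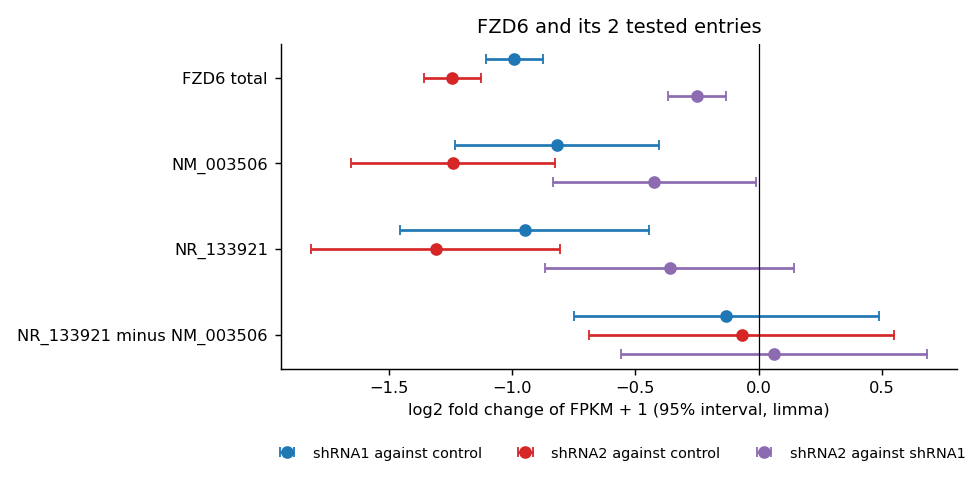
Log2 fold changes of FPKM + 1 with 95% intervals from limma for the *FZD6* total, its 2 tested entries and the difference between these entries. The intervals of the entries are wider than those of the total, and the intervals of the difference between NR_133921 and NM_003506 all include 0.

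The hairpins were compared with each other because their targets lie in different parts of the transcript. NM_003506 had a log2 fold change of −0.42 for shRNA2 over shRNA1 (95% interval −0.84 to −0.01, adjusted p = 0.418 by limma). NR_133921 differed by −0.36 (−0.86 to 0.14, adjusted p = 0.589 by limma). Neither passed the test, which called 0.492% of entries. The total was lower with shRNA2 (log2 fold change −0.25, 95% interval −0.37 to −0.13, adjusted p = 0.0274 by limma), in a contrast that called 6.7% of genes. This call was lost without any one of 7 libraries, namely control replicates 2 and 3, each shRNA1 library, and shRNA2 replicates 1 and 3 (adjusted p up to 0.0987 by limma). It was also lost when only protein-coding accessions were summed, which gave −0.17 (adjusted p = 0.206 by limma). The sum of NM_001317796 and NM_001164616, whose GENCODE model lacks the shRNA1 target, was 0.00614, 1.62 and 0.140 FPKM with shRNA1 and 1.82, 0.949 and 1.66 FPKM with shRNA2. In control cells it was 5.62, 0.0755 and 0.408 FPKM, a range that overlapped those of both hairpins.

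The share of each entry in the total says how Cufflinks divided the gene. NM_003506 held 46.3%, 73.6% and 74.9% of the *FZD6* total in control replicates 1 to 3, 68.6%, 61.4% and 84.1% with shRNA1, and 64.3%, 59.9% and 58.8% with shRNA2. The mean share was 64.9% ± 16.2 (SD, n = 3) in the control group, 71.4% ± 11.6 for shRNA1 and 61.0% ± 2.92 for shRNA2. NR_133921 held 26.0%, 26.0% and 22.9% in control cells, 31.4%, 22.7% and 14.4% with shRNA1, and 12.4%, 23.2% and 19.6% with shRNA2. Its mean share was 25.0% ± 1.77 (SD, n = 3) in the control group, 22.8% ± 8.47 for shRNA1 and 18.4% ± 5.48 for shRNA2. The groups overlapped for both entries with shRNA1, and NR_133921 overlapped between control and shRNA2 through replicate 2 of the latter. None of 20 comparisons of shares passed (two-sided exact permutation test, lowest p = 0.2, adjusted p = 1). The comparisons of 3 libraries against 3 could not have passed, since this exact test cannot go below 0.1 there. With 6 against 3 its smallest value is 0.0119 before adjustment. The test therefore cannot decide whether the shares moved.

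Differential usage was tested by the diffSplice function of limma. The log2 fold change of NR_133921 relative to NM_003506 was −0.13 with shRNA1 (95% interval −0.75 to 0.49) and −0.07 with shRNA2 (−0.69 to 0.55). The hairpins differed from each other by 0.06 (−0.56 to 0.68), and the adjusted p was 1 in the 3 comparisons. These values depended on the scale. With pseudocounts of 0.1 and 0.01 they were −0.32 and −0.35 with shRNA1 and −0.37 and −0.42 with shRNA2, and with no filter, where NR_133921 is set against the 4 other entries, −0.48 and −0.99, none of them called (lowest adjusted p = 0.573 by limma). Among all entries tested for usage, 0.468%, 0.959% and 0.729% were called in these comparisons.

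**Figure D4:**
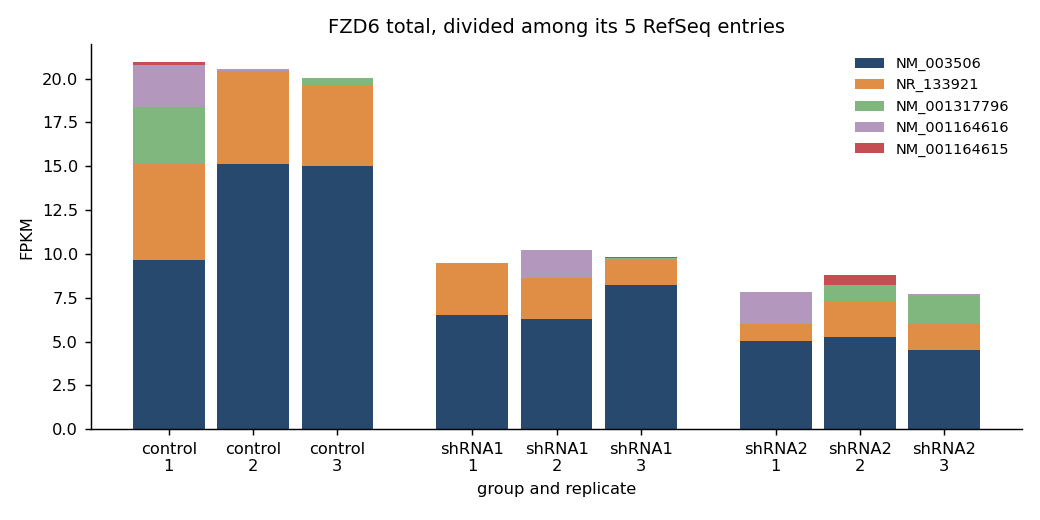
The *FZD6* total of each library in FPKM, stacked by its 5 RefSeq entries, for the control, shRNA1 and shRNA2 replicates. The totals are nearly level within a group, at 20.04 to 20.9 FPKM in control cells, while the division among entries differs between replicates.

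On the log2 scale both tested entries varied more between replicates than the total did, although not in every group. The coefficient of variation of the total was 2.15% in control cells, 3.83% with shRNA1 and 7.38% with shRNA2, whereas that of NM_003506 was 23.4%, 15.3% and 7.76% in the same order and that of NR_133921 was 9.00%, 35.0% and 35.3%. With shRNA2, NM_003506 and the total thus varied about equally. On log2(FPKM + 1) the within-group SD was 0.231 for NM_003506, 0.284 for NR_133921 and 0.0634 for the total. The first 2 values are near the median of 0.218 over 13436 tested entries of genes with several tested entries, and the last is near the median of 0.0567 for the totals of those genes. NM_001317796 and NM_001164616, with SDs of 0.751 and 0.875, lay well above it.

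In control replicate 1, where NM_003506 was lowest among the control libraries, NM_001317796 and NM_001164616 together stood at 5.62 FPKM. The sum of these 3 entries, put together after their values were seen and therefore not tested, was 15.3, 15.2 and 15.4 FPKM in control cells. Its coefficient of variation was 0.695%. With shRNA1 the same sum was 6.50, 7.90 and 8.38 FPKM, and with shRNA2 it was 6.87, 6.22 and 6.18 FPKM. These sums do not overlap between control and knockdown libraries and do overlap between the hairpins.

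The Cufflinks bounds were narrower than this spread. Of 9 pairs of libraries of the same group, the bounds failed to meet in 4 for NM_003506, 3 for NR_133921, 8 for NM_001317796, 6 for NM_001164616 and 3 for NM_001164615. Over all tested entries the bounds failed to meet in 28.3% of such pairs, at 10.2% for entries of genes with 1 entry and 33.2% for entries of genes with more. The SD between replicates was 5.51 times the SD implied by the bounds for NM_003506, 2.79 times for NR_133921, 10.6 times for NM_001317796, 10.9 times for NM_001164616 and 5.31 times for NM_001164615, against a median of 2.17 over all tested entries. Between control and knockdown the bounds of NM_003506 were apart in 8 of 9 pairs with shRNA1 and 9 of 9 with shRNA2, and those of NR_133921 in 9 of 9 with each hairpin. Between the hairpins they were apart in 8 of 9 pairs for NM_003506 and in 5 of 9 for NR_133921. How often the levels or bounds of all tested entries are apart between groups was not counted. These counts between groups therefore describe the *FZD6* entries alone and do not say how unusual they are. One entry ranked first in all 9 libraries, as NM_003506 did, in 3276 of 4779 genes with several tested entries (68.5%).

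Of 40 ligands, receptors and partners of FZD6 listed for this purpose, 26 were tested at the gene level. With shRNA1, 0 were higher and 8 lower, where 11.6% of all tested genes were higher and 7.19% lower. With shRNA2, 1 was higher and 8 were lower, against 15.3% and 11.4% of all tested genes. With the trend with transcript length removed, 4 were lower with shRNA1, where 712 of all 12507 tested genes were lower. The median log2 fold change of the tested list was −0.06 with shRNA1 and −0.08 with shRNA2, against 0.03 over all tested genes with either hairpin. Both comparisons use the same control libraries. Leaving out 1 library left 2 to 4 genes lower with shRNA1 wherever a control or shRNA1 library was dropped. In those fits 365 to 568 of all 12507 tested genes were lower with shRNA1, against 899 with all libraries.

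Among the receptors, *FZD2*, another Frizzled, was at 10.2 ± 0.0617 FPKM (SD, n = 3) in control cells, 8.96 ± 0.191 with shRNA1 and 8.61 ± 0.682 with shRNA2, with log2 fold changes of −0.18 (adjusted p = 0.0454 by limma) and −0.23 (0.0138). *FZD5* fell by 0.15 on the log2 scale with shRNA2 (adjusted p = 0.0270 by limma). The Wnt coreceptor genes *LRP5* and *LRP6* were lower with both hairpins, with log2 fold changes of −0.13 and −0.26 for *LRP5* and of −0.30 and −0.34 for *LRP6*. The shRNA1 calls of *FZD2*, *LRP5* and *LRP6* were lost in 7, 6 and 6 of 9 fits that leave out 1 library, and the call of *FZD5* in 3. Counting every kind of alternative, the shRNA1 call of *FZD2* was lost in 10 of 17. The shRNA1 call of *LRP5* (−0.09) and the shRNA2 call of *FZD5* (−0.09) were also lost with the length trend removed. *PTK7*, a coreceptor of planar cell polarity signaling, was lower with shRNA2 (−0.21, adjusted p = 0.00610 by limma) and had a value of −0.10 with shRNA1 (adjusted p = 0.0940).

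Of the polarity cadherins, which bridge neighboring cells, *CELSR1* was at 5.75 ± 0.278 FPKM (SD, n = 3) in control cells, 4.20 ± 0.107 with shRNA1 and 3.16 ± 0.163 with shRNA2. Its log2 fold changes were −0.37 (adjusted p = 0.00321 by limma) and −0.70 (0.000226), and it was lower with shRNA2 than with shRNA1 (−0.32, adjusted p = 0.00523). *CELSR2* was at 3.55 ± 0.108 FPKM (SD, n = 3) in control cells, 2.27 ± 0.085 with shRNA1 and 2.41 ± 0.114 with shRNA2, and its log2 fold changes were −0.48 and −0.41. The calls of *CELSR1* and *CELSR2* against control held in all 16 alternative settings counted for them, but the size of the change depended on the setting. The filter of 5 FPKM removes both genes, so they were not tested there. For *CELSR1* it ranged from −0.45 to −0.209 with shRNA1 and from −0.859 to −0.56 with shRNA2. For *CELSR2* the ranges were −0.642 to −0.324 and −0.555 to −0.289. *CELSR3* (−0.17), *VANGL1* (−0.18), which encodes a membrane partner of Frizzled in polarity, and *DVL3* (−0.11), which encodes a Dishevelled adaptor, were called lower with shRNA1. Each of these 3 calls was lost in 5 of 9 fits that leave out 1 library, and once a trend with transcript length was removed the values were 0.00801 for *CELSR3*, −0.06 for *VANGL1* and −0.08 for *DVL3*, none of them called. *PRICKLE3*, of a family of cytoplasmic polarity proteins, was higher with shRNA2 (0.26, adjusted p = 0.00615 by limma) and higher than with shRNA1 (0.23, adjusted p = 0.0264).

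*CTHRC1* encodes a secreted protein that binds Wnt ligands and Frizzled receptors, and it is also a neighbor of *FZD6*, beginning at 103371538. It was at 22.3 ± 0.569 FPKM (SD, n = 3) in control cells, 22.1 ± 0.744 with shRNA1 and 19.7 ± 0.320 with shRNA2. It was lower with shRNA2 than in control cells (−0.17, adjusted p = 0.00961 by limma) and than with shRNA1 (−0.16, adjusted p = 0.0308). The calls between hairpins for *PRICKLE3* and *CTHRC1* were lost in 5 and 6 of 9 fits without 1 library.

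Within 500000 bases of *FZD6*, 8 genes were tested. *DCAF13*, which encodes a nucleolar protein of ribosome production, was at 35.9 ± 0.620 FPKM (SD, n = 3) in control cells, 40.8 ± 0.716 with shRNA1 and 42.6 ± 1.49 with shRNA2 (log2 fold changes 0.18 and 0.24). *SLC25A32*, which encodes a mitochondrial folate carrier, was at 11.2 ± 0.193, 12.6 ± 0.259 and 13.5 ± 0.399 FPKM (0.15 and 0.25). Both passed the test with each hairpin (highest adjusted p = 0.0149 by limma), although *SLC25A32* lost its shRNA1 call in 2 of 9 fits that leave out 1 library and *DCAF13* lost its own under quantile normalization (0.12, adjusted p = 0.0547). Among all tested genes, 11.6% were called higher and 7.19% lower with shRNA1, and 15.3% higher and 11.4% lower with shRNA2. *ATP6V1C1*, *AZIN1*, *MAILR* and *RIMS2* passed in neither comparison, with log2 fold changes from −0.17 to 0.10.

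The noncoding gene *LOC105369147* overlaps the first 325 bases of the *FZD6* locus, a stretch that only NM_001164615 of the 5 entries covers. Its total was 3.10 ± 0.0591 FPKM (SD, n = 3) in control cells, 2.99 ± 0.296 with shRNA1 and 2.27 ± 0.387 with shRNA2, and it was lower with shRNA2 (−0.33, adjusted p = 0.0266 by limma). That call was lost in 4 of 9 fits that leave out 1 library. The kit marks strand, but whether the fragments were assigned by strand is not given in the sources used here, so fragments of the overlap may count for either gene. *SNORD173*, which lies inside *FZD6*, was at 0 in all libraries.

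**Figure D5:**
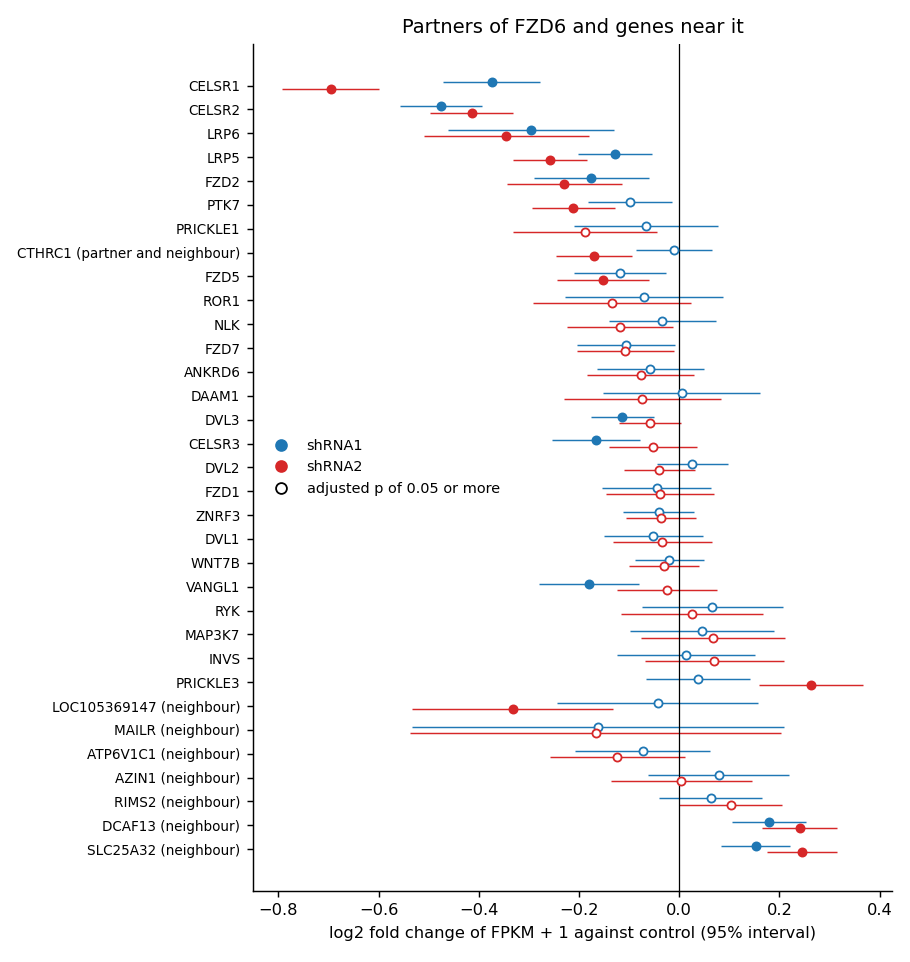
Log2 fold changes of FPKM + 1 against control, with 95% intervals from limma, for the 26 tested partners of *FZD6* and the tested genes near it (blue for shRNA1, red for shRNA2, open points for an adjusted p of 0.05 or more). *CELSR1* and *CELSR2* lie furthest to the left, and *DCAF13* and *SLC25A32* are higher with both hairpins.

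The genes whose levels followed the *FZD6* total most closely over the 9 libraries were *FASN* (Pearson r = 0.993), *CIT* (0.990), *MYH9* (0.989), *HDAC5* (0.988) and *PIEZO1* (0.983), on log2(FPKM + 1). These values describe 9 libraries in 3 groups that differ in the hairpin, so they mostly carry the difference between groups. *FASN*, which encodes fatty acid synthase, was at 91.0, 90.6 and 87.4 FPKM in control cells, 58.2, 58.4 and 57.0 FPKM with shRNA1 and 52.6, 50.6 and 49.4 FPKM with shRNA2. *MYH9*, which encodes a nonmuscle myosin heavy chain, was at 208, 203 and 195 FPKM in control cells and between 135 and 151 FPKM with either hairpin. For both genes every knockdown library lay below every control library. They were picked for following the *FZD6* total, which separates these groups too, so this is not a separate result.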

How the data were processed

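The members and gene lists were chosen with earlier results of these data known. The authors prepared stranded mRNA libraries, used STAR for mapping and Cufflinks for FPKM. Their versions are not given in the sources used here. The methods name mm10, whereas the labels name hg38 and the loci are human. The deposited tables hold FPKM with lower and upper bounds, in FPKM as well, for each RefSeq accession and locus, and no counts, so depth was estimated from the bounds. The bounds describe 1 library each, whereas the 95% intervals come from limma and the spread between libraries. Of 73240 accessions, 72639 were matched to a gene through a RefSeq table of GRCh38.p14. Exons and hairpin targets were read from GENCODE v29, and no sequence is printed.

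Entries, or sums over the entries of a gene, with a mean of at least 1 FPKM were tested as log2(FPKM + 1) in a model of 3 groups with limma 3.58.1 (R 4.3.3), and Benjamini-Hochberg adjusted p-values under 0.05 were called. The comparison of both hairpins with control used a model of 2 groups instead, in which differences between the hairpins add to the spread. The fits were tested on simulated data. SDs implied by the bounds take these as 2 SD on either side. Levels, shares and exact permutation tests used Python 3.11.15, pandas 2.3.3 and numpy 2.4.6. Named were all *FZD6* entries, the listed partners called for either hairpin, genes of at least 1 FPKM within 500000 bases, and the 5 genes most correlated with the *FZD6* total. Alternatives were other pseudocounts (0.1, 0.01), no filter, a filter of 5 FPKM, quantile normalization, removal of a trend with length, the replicate number as a block, each library left out, primary chromosomes, protein-coding accessions, and only the 6 libraries compared. Entries whose status was not OK in a library were left out of the tests.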

Additional observations from a re-analysis of the deposited data

Results flagged for a closer look

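In shRNA2 replicate 2, NM_001164615 stood at 0.538 FPKM and 6.12% of the *FZD6* total, far above the other 5 knockdown libraries. Of 11 *FZD6* measures examined over the 6 knockdown libraries, 2 stood out in this way. They are the level and the share of the same entry in the same library, so they are not independent. The rule is set to flag about 1 in 20 measures of normally distributed values by chance. That rate need not hold for an entry at such low levels. The limma contrast of shRNA2 with shRNA1 called the *FZD6* total (log2 −0.25), *CELSR1* (−0.32), *PRICKLE3* (0.23) and *CTHRC1* (−0.16), where it called 6.7% of all tested genes. The call of *CELSR1* held in all 9 fits that leave out 1 library. Those of the total, *PRICKLE3* and *CTHRC1* held in 2, 4 and 3 of the 9. The hairpin groups share the control libraries, and no cause of these differences was tested.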

How the results depend on the processing

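The tables leave their length column empty, so the planned removal of a length trend and the shares weighted by length used GENCODE v29 lengths, a setting chosen after the data were seen. The *FZD6* total kept its direction and its call against control with either hairpin under every setting tried. The replicate numbers do not pair the samples (1 of 9 same-number pairs correlated above 0.1). With the replicate number as a block, the values of NM_003506 (−1.03 over both hairpins, −1.24 with shRNA2) and NR_133921 (−1.13 and −1.31) were unmoved but none was called, and the calls over all entries fell from 417 to 33 over both hairpins, from 103 to 10 with shRNA1, and from 685 to 68 with shRNA2. Between hairpins the block left 0 entries called by limma, with 2416 at an unadjusted p under 0.05. Over both hairpins the calls of NM_003506 (−1.03) and NR_133921 (−1.13) were also lost with no filter, with the length trend removed and with primary chromosomes only. That of NR_133921 was lost with pseudocounts of 0.1 (−1.49) and 0.01 (−1.54), and its shRNA2 call (−1.31) with no filter. With a filter of 5 FPKM, which removes NR_133921, NM_003506 was called with shRNA1 (−0.82). The difference of the total between hairpins was not called in the 6 libraries alone (−0.25) or over protein-coding accessions (−0.17). The usage difference between hairpins turned to −0.0502 and −0.0713 with the smaller pseudocounts and to −0.50 with no filter, and the share difference of NM_003506 over both hairpins turned to −2.68 percentage points over protein-coding entries. With the length trend removed, 4 partners and 712 of all 12507 tested genes were lower with shRNA1, and *CELSR3* stood at 0.00801.

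Leaving out each library in turn gave −1.23 to −0.93 for NM_003506 over both hairpins and −1.44 to −1.14 with shRNA2, −1.23 to −1.03 and −1.46 to −1.15 for NR_133921, and −0.30 to −0.22 for the total between hairpins. Usage lay between −0.34 and 0.17 with shRNA1, −0.23 and 0.17 with shRNA2, and −0.24 and 0.27 between hairpins. The share of NM_003506 moved by −8.06 to 6.24 points over both hairpins, −2.89 to 11.4 with shRNA1 and −13.2 to 1.06 with shRNA2, and that of NR_133921 by −6.41 to 2.06 with shRNA1. The partners lower with shRNA1 numbered 2 to 8, where 365 to 1367 of all 12507 tested genes were lower. Over the settings, called entries ranged from 33 to 1256 over both hairpins, 10 to 883 with shRNA1, 52 to 1581 with shRNA2 and up to 240 between hairpins. For usage they ranged from 10 to 737, 58 to 908 and 36 to 764, and called genes from 917 to 3534, 2094 to 4193 and 333 to 1171. Of 25 calls of partners and neighbors, 13 held in every alternative counted for them, which leaves out the filter of 5 FPKM for genes below it. The cause of these changes was not tested. The 3 libraries per group and the division of fragments among 5 overlapping transcripts limit the precision of every entry.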
